A study of Mus musculus with 2 samples.

Results

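Potassium channel genes were examined in cultured fibroblastic reticular cells (FRCs), the fibroblasts that build the scaffold of lymph nodes. Members were all genes whose symbol in the platform's probe annotation starts with Kcn followed by lower-case letters and any digits, counted over probe sets that name a single gene. The rule found 92 of 19751 named genes. Of these, 89 encode channel subunits or their regulators and 3 (Kcnd3os, Kcnmb4os1 and Kcnmb4os2) are long noncoding RNAs that take their symbol from a channel gene.

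The series has 1 group with 2 arrays. Stromal cells from lymph nodes of untreated 4- to 6-week-old C57BL6/J mice were expanded over 7 to 10 days in medium (αMEM) containing 10% fetal calf serum, and total RNA of the resulting FRCs, which the source label calls purified, was hybridised. The labels leave out whether the arrays stand for different mice or different cultures, so their spread may be technical in part. Without a second condition, nothing was tested for significance. Values are log2 intensities from an RMA (robust multi-array average) table, given on each array or as mean ± SD over n = 2 arrays.

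Potassium channels are membrane pores that let potassium leave the cell and so hold the membrane potential negative. Pore-forming subunits include voltage-gated channels, inward rectifiers, which pass current best at negative potentials, and two-pore channels, which carry leak current. A further class holds channels opened by intracellular calcium or sodium, together with the rest of the Slo family. Auxiliary subunits bind pores and change their gating or transport. In fibroblasts and smooth muscle these channels are known to affect calcium entry, contraction and proliferation.

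A smaller share of the family than of all named genes passed the main background limit, and most members did not pass a stricter one. The main limit was the 95th percentile of the 1035 probe sets for olfactory receptors, genes of the nasal epithelium that stand for background, and was 7.15 on replicate 1 and 7.17 on replicate 2. Above it on both arrays lay 49 of 92 members (53.3%), against 67.3% of all named genes. With vomeronasal and taste receptors setting the limit instead, 73 of 92 members and 79.7% of all named genes passed, and the members' share was then close to that of all genes. Of the 89 subunits alone, 46 passed on both arrays, 3 on 1 array only and 40 failed on each. A stricter limit, the 95th percentile of 32 genes restricted to other tissues, was 8.10 and 8.19. It was passed on both arrays by 15 members (16.3%), 14 subunits and Kcnd3os, against 49.7% of all named genes.

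Genes not known from fibroblasts often passed the olfactory receptor limit on these arrays. Of the 32 tissue-restricted genes, which encode products such as albumin, insulin and sperm proteins, 14 (43.8%) passed it on both arrays, a share close to the 51.7% of channel subunits. The median level was 7.24 over the 89 subunits, 7.05 over the tissue-restricted genes and 8.23 over all named genes. A subunit that cleared the olfactory receptor limit on each array and the stricter one on neither is called "between the limits" below. The highest olfactory receptor probe set reached 9.51 on replicate 1 and 9.46 on replicate 2, and 2 subunits, Kcnab1 and Kcnmb1, lay above it on both arrays (2.25% of subunits, against 31.4% of all named genes).

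**Figure D1:**
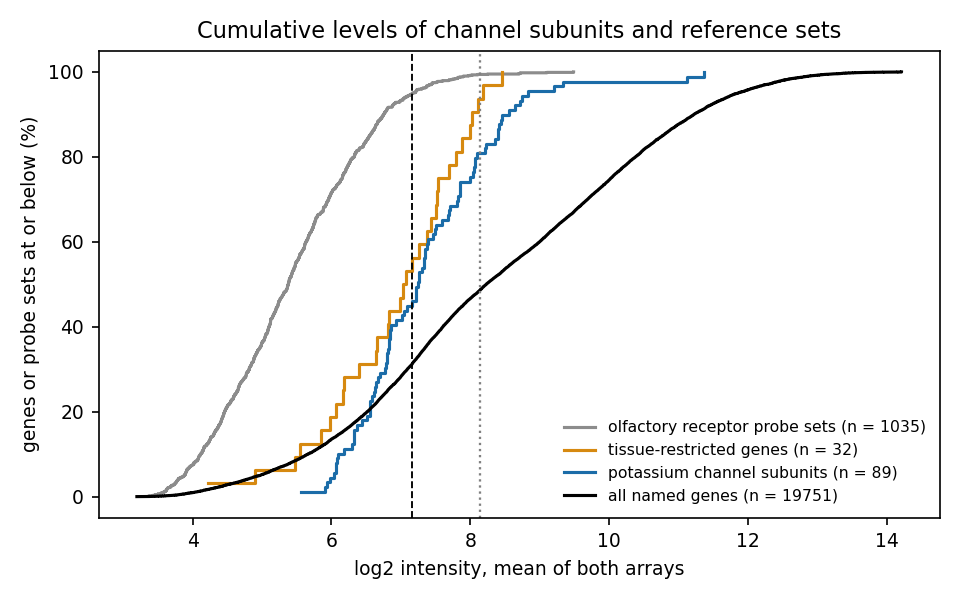
Cumulative share of genes or probe sets (%) against log2 intensity averaged over both arrays, for 1035 olfactory receptor probe sets, 32 tissue-restricted genes, 89 channel subunits and 19751 named genes. The dashed line is the mean olfactory receptor limit and the dotted line the mean tissue-restricted limit. The subunits have a median of 7.24, against 7.05 for the tissue-restricted genes, and a short tail of subunits reaches 11.37.

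The sequences upstream of 5 members are shown because these members carry the results: Kcnab1, Kcnmb1 and Kcnn3 passed both limits on both arrays, and Kcnk10 and Kcnq5 differed most between the arrays. Each is the 250 bases before the outermost start site in RefSeq's table (GRCm38.p6), written 5′ to 3′ on the gene's strand, with CG dinucleotides, the sites of DNA methylation, in capitals. The Kcnab1 window lies at chr3:64948962-64949211, plus strand, 6 CG. That of Kcnmb1 lies at chr11:33962763-33963012, plus strand, 1 CG. For Kcnn3 the window is chr3:89519914-89520163, plus strand, 10 CG. Kcnk10 has its window at chr12:98578214-98578463, minus strand, 4 CG. The Kcnq5 window is chr1:21962651-21962900, minus strand, 3 CG.
Kcnab1 window: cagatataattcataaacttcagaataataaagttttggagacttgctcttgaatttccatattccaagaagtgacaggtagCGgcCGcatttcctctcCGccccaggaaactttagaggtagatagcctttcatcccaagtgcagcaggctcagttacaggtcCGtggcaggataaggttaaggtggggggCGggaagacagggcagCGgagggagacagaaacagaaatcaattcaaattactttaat
Kcnmb1 window: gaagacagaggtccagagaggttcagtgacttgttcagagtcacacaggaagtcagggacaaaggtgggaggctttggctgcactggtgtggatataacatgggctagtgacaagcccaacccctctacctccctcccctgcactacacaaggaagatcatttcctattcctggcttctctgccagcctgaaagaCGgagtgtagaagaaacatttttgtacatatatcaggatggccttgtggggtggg
Kcnn3 window: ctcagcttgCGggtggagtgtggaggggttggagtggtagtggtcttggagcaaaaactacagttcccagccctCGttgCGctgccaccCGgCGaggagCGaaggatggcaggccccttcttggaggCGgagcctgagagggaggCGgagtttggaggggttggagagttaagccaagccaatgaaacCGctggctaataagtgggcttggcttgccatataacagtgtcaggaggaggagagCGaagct
Kcnk10 window: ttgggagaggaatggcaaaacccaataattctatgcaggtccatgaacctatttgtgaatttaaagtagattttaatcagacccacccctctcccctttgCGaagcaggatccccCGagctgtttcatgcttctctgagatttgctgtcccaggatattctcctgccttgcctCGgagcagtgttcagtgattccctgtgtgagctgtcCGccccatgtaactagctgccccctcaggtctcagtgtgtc
Kcnq5 window: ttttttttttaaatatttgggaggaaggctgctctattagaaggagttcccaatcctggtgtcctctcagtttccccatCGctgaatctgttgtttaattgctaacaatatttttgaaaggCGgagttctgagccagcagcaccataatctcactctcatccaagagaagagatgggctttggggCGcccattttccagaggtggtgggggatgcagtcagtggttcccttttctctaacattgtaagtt
The 5 windows held between 1 and 10 CG, and the window of Kcnmb1 held the fewest. Kcnk10 and Kcnq5 each have a further RefSeq start site whose window held more CG, 16 for Kcnk10 and 14 for Kcnq5, and Kcnab1 has 2 further start sites whose windows held fewer, 2 and 1.

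Such 250-base windows were found for 68 of the 89 subunits and 15434 named genes, and CG was averaged over a gene's windows. The median was 9.5 CG for the 36 subunits that passed the olfactory receptor limit and 7.0 for the 32 others. Among all named genes the same medians were 15.0 and 3.0, so the median of subunits below the limit was higher than that of all genes below it. Most olfactory receptors fall below a limit set on them, and the part of those with a window in the median of 3.0 was not examined. By class the median was 15.75 CG for 24 voltage-gated subunits, 10.0 for 5 calcium-activated and Slo subunits, 9.0 for 11 two-pore subunits, 7.0 for 15 auxiliary subunits and 6.0 for 13 inward rectifiers. The letters TATAAA, searched on both strands, occurred in 3 members, the inward rectifiers Kcnj9, Kcnj13 and Kcnj16, and in 12.6% of all named genes with a window. Those 3 lay below the limit, where 9.38% of members and 22.8% of all such genes held these letters, against 0 members and 7.85% of genes above it. TGACTCA, the binding letters of AP-1, occurred upstream of Kcnip3 and Kcnk2 and of 4.70% of named genes. The CArG box, bound by serum response factor, occurred in 0 of 68 members and in 1.46% of named genes.

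Auxiliary subunits included both members above the highest olfactory receptor probe set. Of 17, 8 passed the olfactory receptor limit and 4 the stricter one. Kcnab1, a cytoplasmic beta subunit of Kv1 channels, was at 11.50 on replicate 1 and 11.24 on replicate 2. Kcnmb1, the smooth muscle beta subunit that raises the calcium sensitivity of the BK channel, was at 11.39 on replicate 1 and 10.86 on replicate 2. For these genes the arrays lay above every limit used. Of the other beta subunits of Kv1, Kcnab3 was at 9.0 on replicate 1 and 8.49 on replicate 2, above both limits, and Kcnab2 at 7.98 on replicate 1 and 8.15 on replicate 2, between them. Kcnip3, a calcium-binding partner of Kv4 channels that also acts as a transcriptional repressor, was at 8.74 on replicate 1 and 8.91 on replicate 2 and passed both limits.

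The remaining auxiliary subunits were between the limits or below. Kcnmb3 (8.06 ± 0.05), Kcne1l (7.49 ± 0.07) and Kcnmb4 (7.39 ± 0.15), a BK subunit known from neurons, lay between them. Below the first limit on both arrays were Kcnmb2, the Kv4 partners Kcnip1, Kcnip2 and Kcnip4, the small single-span subunits Kcne1, Kcne2, Kcne3 and Kcne4, and the soluble regulator Kcnrg. Their means ran from 5.94 for Kcne3 to 7.04 for Kcne2. Kcne4, a suppressor of several voltage-gated channels, was at 6.81 and 6.79.

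The pores that these auxiliary subunits serve did not all pass with them. Kcnma1, the BK pore and the partner of Kcnmb1, was at 6.32 on replicate 1 and 6.33 on replicate 2, below the limit on both arrays. Its 2 probe sets were at 6.06 and 6.57 on replicate 1 and at 6.24 and 6.42 on replicate 2, so neither passed. Among the Kv1 pores, the partners of Kcnab1, Kcna3 passed both limits, Kcna2, Kcna7 and Kcna10 lay between them and Kcna1, Kcna4, Kcna5 and Kcna6 were below. Among the Kv4 pores, the partners of Kcnip3, Kcnd1 passed both limits, Kcnd3 was between them and Kcnd2 below. Levels of different genes are not set against each other, since probes bind with different strength. The limits come from probe sets of other genes, so the side on which a gene lies can also depend on its probes.

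**Figure D2:**
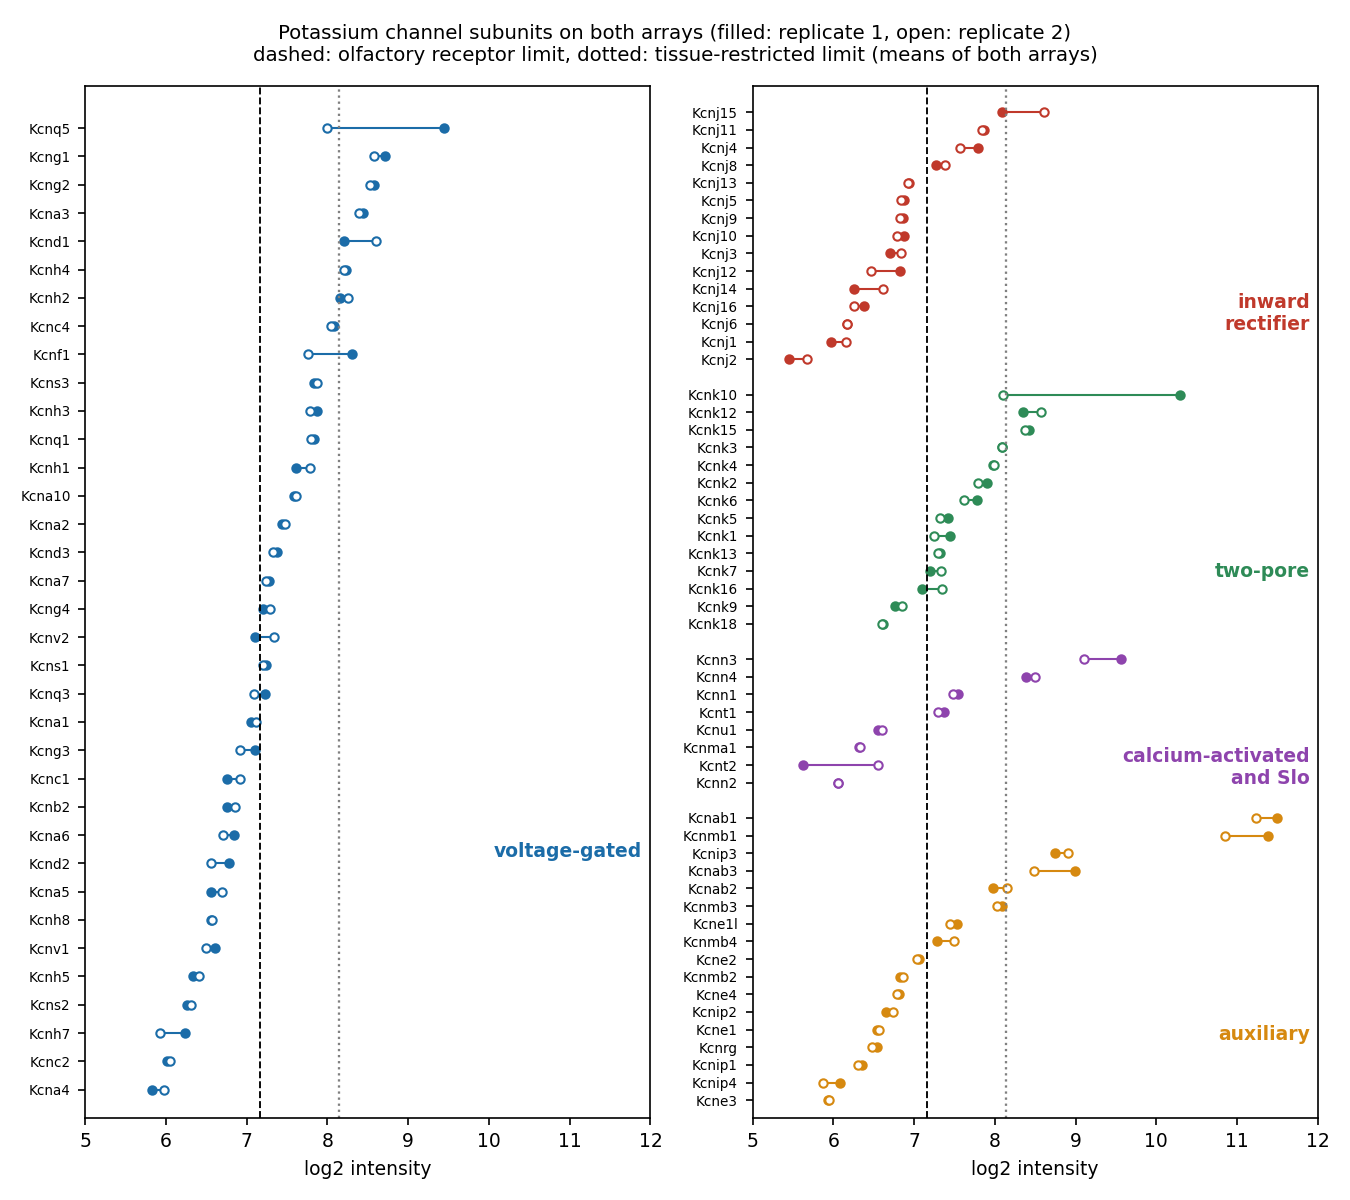
Log2 intensity of the 89 channel subunits, ordered by mean within class, with filled points for replicate 1 and open points for replicate 2 and a line joining the arrays. Kcnab1 and Kcnmb1 stand apart at the right, Kcnk10 and Kcnq5 have the widest gaps between arrays, and most other subunits lie near or left of the dashed olfactory receptor limit.

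Calcium- and sodium-activated pores above the stricter limit were a small and an intermediate conductance gene. Of 8 pores measured in the calcium-activated and Slo class, 4 passed the olfactory receptor limit and 2 the stricter one. Kcnn3, a small conductance (SK) channel gated by calmodulin, was at 9.57 on replicate 1 and 9.11 on replicate 2. Kcnn4, the intermediate conductance channel studied in proliferating fibroblasts and activated lymphocytes, was at 8.38 on replicate 1 and 8.50 on replicate 2. Both passed the stricter limit on each array. The SK gene Kcnn1 (7.51 ± 0.04) and the sodium-activated Kcnt1 (7.33 ± 0.05) lay between the limits. Below were Kcnma1, the SK gene Kcnn2 (6.06 ± 0.00), the sperm channel Kcnu1 (6.58 ± 0.03) and Kcnt2. Kcnt2, also sodium-activated, was at 5.62 on replicate 1 and 6.56 on replicate 2, a gap of 0.93 on the log2 scale between values that were both below the limit.

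Voltage-gated subunits were the largest class, with 35 measured. Above the olfactory receptor limit lay 19 (54.3%) and above the stricter limit 6. Kcnq5, a pore of the M-type current found in smooth muscle and neurons, was at 9.44 on replicate 1 and 8.0 on replicate 2, and passed the stricter limit on replicate 1 only. The 6 that passed it on both arrays were Kcna3 at 8.44 and 8.39 on replicates 1 and 2, Kcnd1 at 8.20 and 8.60, Kcng1 at 8.71 and 8.58, Kcng2 at 8.58 and 8.52, Kcnh2 at 8.16 and 8.26 and Kcnh4 at 8.23 and 8.21. Kcna3 is the main voltage-gated channel of T cells, Kcnd1 gives transient A-type current, and Kcnh2 encodes the hERG channel of cardiac repolarisation. Kcng1 and Kcng2 are modifier subunits that are silent alone and work with Kv2 pores. The Kv2 pore Kcnb2 lay below the limit at 6.76 and 6.85.

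Of the 10 modifier subunits, 6 passed the olfactory receptor limit, and of the 25 conducting voltage-gated pores 13 did. Kcnf1, a further Kv2 modifier, was at 8.31 on replicate 1 and 7.76 on replicate 2 and passed the stricter limit on replicate 1 only. Kcns3, a modifier known from arterial smooth muscle, was between the limits at 7.84 and 7.87. Also between the limits were Kcnc4, Kcnh1, Kcnh3, Kcnq1, Kcna2, Kcna7, Kcna10, Kcnd3, Kcng4 and Kcns1, with means from 7.22 to 8.07. Among these, the cardiac and epithelial pore Kcnq1 was at 7.83 and 7.80 and Kcnh1, of the ether-à-go-go family, at 7.62 and 7.78. The photoreceptor modifier Kcnv2 (7.10 and 7.34) and the neuronal M-current pore Kcnq3 (7.23 and 7.09) passed on 1 array each.

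The other 14 voltage-gated subunits lay below the limit on both arrays. They were Kcna1, Kcna4, Kcna5, Kcna6, Kcnb2, Kcnc1, Kcnc2, Kcnd2, Kcng3, Kcnh5, Kcnh7, Kcnh8, Kcns2 and Kcnv1, with means from 5.90 to 7.08. Most are known for their part in neuronal firing. Kcna5, a channel of atrial and vascular muscle, was at 6.56 and 6.70, and the axonal channel Kcna1 at 7.05 and 7.12.

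At this limit inward rectifiers had the smallest share of the 5 classes, 4 of 15 (26.7%), and 0 passed the stricter limit on both arrays. Kcnj2, the classical strong inward rectifier of muscle and fibroblasts, was at 5.45 on replicate 1 and 5.67 on replicate 2, well inside the olfactory receptor distribution, of which 57.2% of probe sets had a lower mean. Kcnj15 was at 8.09 on replicate 1 and 8.61 on replicate 2 and passed the stricter limit on replicate 2 only. Kcnj4, a strong rectifier of brain and heart, lay between the limits at 7.79 and 7.57. Both pores of ATP-sensitive channels, which close when ATP is high, also lay between the limits, Kcnj11 at 7.86 and 7.84 and the vascular form Kcnj8 at 7.28 and 7.38. The sulfonylurea receptors that complete these channels are Abcc8, between the limits at 7.42 and 7.44, and Abcc9, below at 7.0 and 7.04.

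The 11 inward rectifiers below the limit on both arrays included the G protein-gated pores Kcnj3, Kcnj5, Kcnj6 and Kcnj9, the glial Kcnj10 and its partner Kcnj16, the kidney channel Kcnj1, and Kcnj2, Kcnj12, Kcnj13 and Kcnj14. Their means ran from 5.56 to 6.93. At such levels in bulk RNA, no expression, expression by few cells and a low level in every cell cannot be told apart.

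At the same limit two-pore channels had the largest share, 11 of 14 (78.6%), but only 2 passed the stricter limit on both arrays. These were Kcnk12 at 8.35 and 8.58, a member of the halothane-inhibited group, and Kcnk15 at 8.42 and 8.37, a relative of the acid-sensitive channels. Within the TREK and TRAAK group, which responds to stretch and lipids, Kcnk10 was at 10.29 on replicate 1 and 8.10 on replicate 2, Kcnk2 at 7.91 and 7.79 and Kcnk4 at 7.98 and 8.0. Kcnk10 passed the stricter limit on replicate 1 only, and the other two lay between the limits on both arrays. The acid-sensitive Kcnk3 was at 8.09 and 8.09 and its relative Kcnk9 below the limit at 6.77 and 6.86. Between the limits were also Kcnk1, Kcnk5, Kcnk6, Kcnk7 and Kcnk13, with means from 7.26 to 7.70. The pancreatic channel Kcnk16 passed on replicate 2 only (7.10 and 7.34), and the sensory neuron channel Kcnk18 (6.62 and 6.60) was below.

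**Figure D3:**
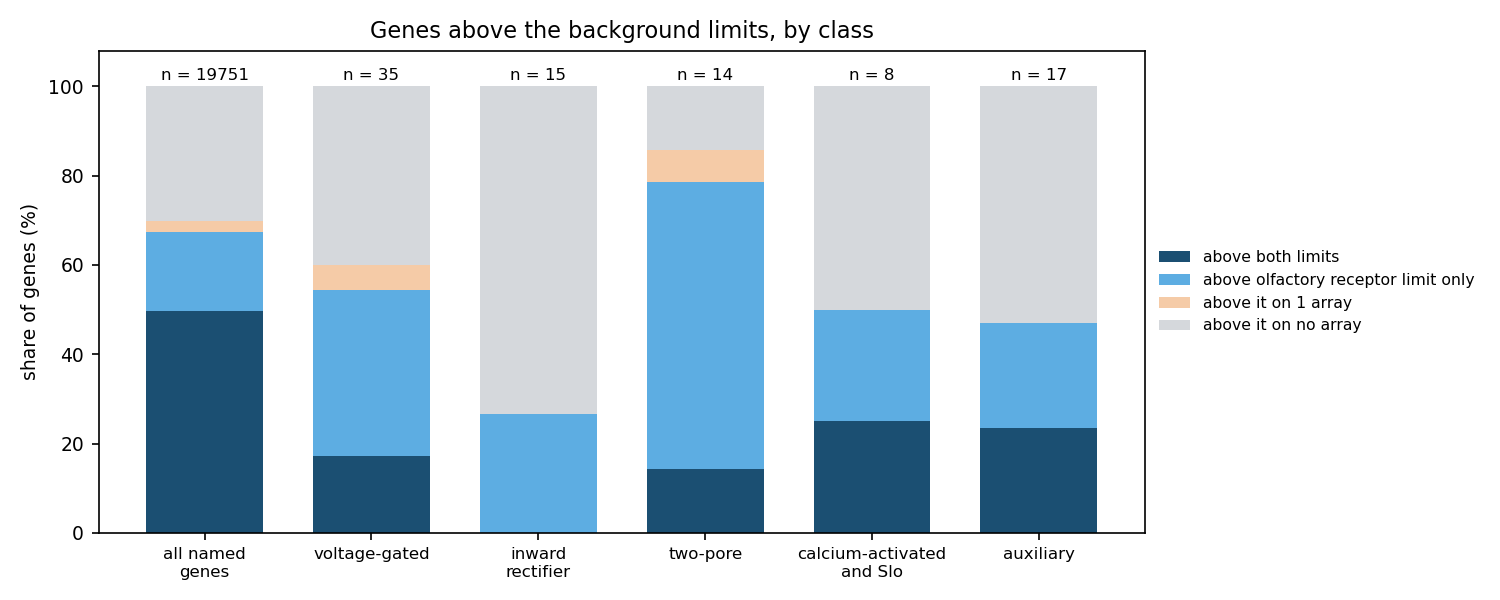
Share of genes (%) above both limits on both arrays, above the olfactory receptor limit only, above it on 1 array or on no array, for all named genes and the 5 classes of channel subunits. Two-pore channels have 78.6% and inward rectifiers 26.7% above the olfactory receptor limit, and every class has a smaller share above both limits than the 49.7% of all named genes.

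The stricter limit was passed by 6 of 35 voltage-gated, 0 of 15 inward rectifier, 2 of 14 two-pore, 2 of 8 calcium-activated and Slo, and 4 of 17 auxiliary subunits. Differences between classes were not tested. Members close to the first limit could lie on either side by small margins. The nearest above the mean limit of 7.16 were Kcns1 (7.22 ± 0.02), Kcnv2 (7.22 ± 0.17) and Kcnk16 (7.22 ± 0.17), and the nearest below were Kcnq3 (7.16 ± 0.10), Kcna1 (7.08 ± 0.05) and Kcne2 (7.04 ± 0.02). The noncoding members Kcnd3os (8.92 ± 0.12), Kcnmb4os2 (7.73 ± 0.09) and Kcnmb4os1 (7.48 ± 0.04) passed the first limit, and Kcnd3os passed the second. The sources used here do not state which strand the probes read.

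The arrays were then compared for the 51 members with a mean above the mean limit of 7.16. At least 2-fold apart were 2 members, against 1.41% of the 13577 named genes above the same mean limit. Both were higher on replicate 1, as 0.368% of those 13577 genes were, and no member was 2-fold higher on replicate 2, as 1.05% of them were. Kcnk10 differed 4.56-fold and Kcnq5 2.73-fold, with log2 differences of -2.19 and -1.45 for replicate 2 minus replicate 1. With values below the tissue-restricted limit set to it, the folds were at least 4.30-fold and 2.39-fold. Each difference rests on 1 array a side and has no replicate check. No further member of the 51 reached 1.5-fold. With Kcnk10 and Kcnq5 counted, 2 of the 51 were at least 1.5-fold apart, against 4.77% of the 13577 genes.

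Gaps under 1.5-fold were found in other members that passed the stricter limit on 1 or both arrays. Kcnmb1 was 1.45-fold, Kcnab3 1.42-fold, Kcnn3 1.38-fold and Kcnf1 1.46-fold higher on replicate 1, and Kcnj15 1.44-fold and Kcnd1 1.32-fold higher on replicate 2. Of the 17 subunits with a mean above the mean stricter limit of 8.14, 11 were lower and 6 higher on replicate 2. Of the 10127 named genes above that limit, 4914 were lower and 5213 higher on replicate 2. The direction of the subunits as a set was not tested. The median absolute difference was 0.23 over the 17 subunits, against 0.12 over the 10127 named genes. Over all 51 members above the first limit the median signed difference was -0.04 and the median absolute difference 0.11, and over the 13577 genes they were 0.0046 and 0.11.

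**Figure D4:**
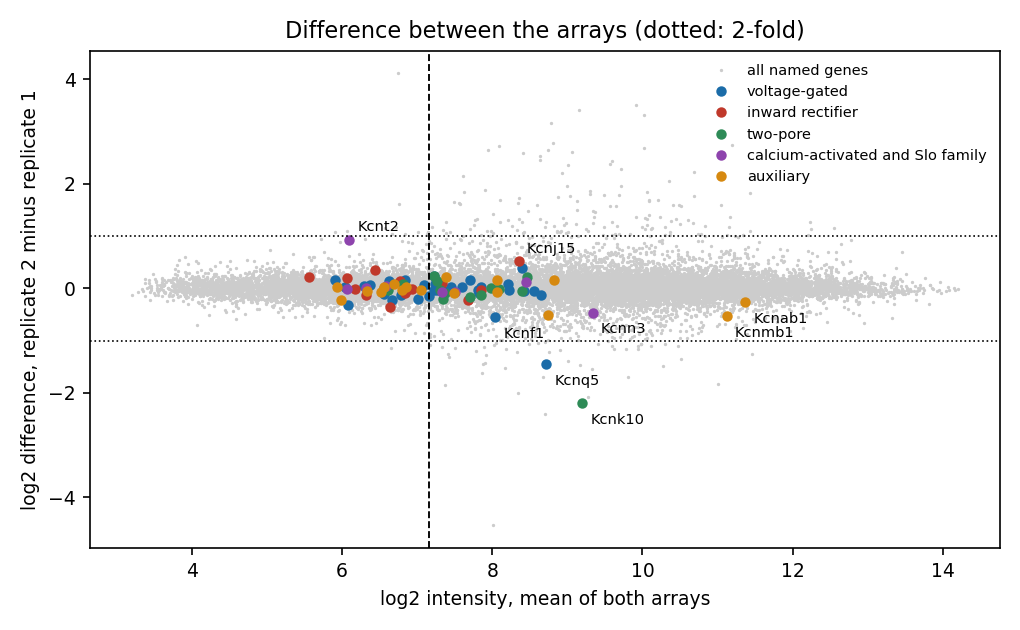
Log2 difference between the arrays (replicate 2 minus replicate 1) against mean log2 intensity for all named genes (grey) and the 89 subunits, coloured by class, with 2-fold marked by dotted lines and the olfactory receptor limit by a dashed line. Kcnk10 at -2.19 and Kcnq5 at -1.45 lie outside the dotted lines, and Kcnt2 at 0.93 lies left of the limit.

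Pumps and cotransporters also move potassium across the membrane, and 17 genes of such a list were measured. Of these, 11 (64.7%) passed the olfactory receptor limit and 7 (41.2%) the stricter one, against 67.3% and 49.7% of all named genes. The sodium pump beta subunits Atp1b1 and Atp1b3 were at 10.15 ± 0.34 and 12.37 ± 0.00, and the pump regulator Fxyd5 at 13.22 ± 0.06. The cotransporters Slc12a2 (10.01 ± 0.23), Slc12a4 (10.87 ± 0.11) and Slc12a7 (8.68 ± 0.41) passed both limits, as did Fxyd6. Below the first limit lay the proton pump genes Atp4a and Atp12a, known from stomach and colon, with Atp1a4, Fxyd1 and Fxyd3, and Atp4b passed on 1 array.

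Genes on a list for calcium entry, store release and related channels passed the first limit in 18 of 19 cases and the stricter limit in 15. Of all named genes, 67.3% passed the first limit and 49.7% the stricter one. Orai1 and Stim1, the store-operated pore and its sensor, were at 9.27 ± 0.03 and 10.35 ± 0.06, and the stretch-activated Piezo1 was at 12.47 ± 0.08. Trpc6, a lipid-gated cation channel, was at 9.70 on replicate 1 and 8.32 on replicate 2, 2.61-fold higher on replicate 1. Only Cacna1d, a voltage-gated calcium pore, was below the limit. Among 12 partners of potassium channels and related pores, 6 (50.0%) passed the first limit and 1 (8.33%), the pacemaker channel Hcn2 (8.20 ± 0.09), the second on both arrays. Below were Abcc9, Dpp6, Dpp10, Lrrc38, Lrrc52 and Lrrc55, of which Dpp6 and Dpp10 encode partners of Kv4 channels.

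The labelled cell type was checked with marker genes. All 10 FRC markers passed both limits, with Pdpn at 12.67 ± 0.10 and Pdgfra at 11.89 ± 0.07. Among all named genes, 67.3% passed the olfactory receptor limit on both arrays and 49.7% the stricter one. On both arrays the stricter limit was passed by 0 of 5 lymphatic endothelial, 0 of 5 blood endothelial, 0 of 10 leukocyte, 1 of 6 neural and glial, 1 of 7 muscle and 1 of 5 epithelial markers. On 1 array it was passed by Flt4 (8.41 and 7.79 on replicates 1 and 2) of the lymphatic, Emcn (7.64 and 8.40) of the blood endothelial, Lyz2 (7.12 and 8.43) of the leukocyte and Ckm (8.11 and 8.10) of the muscle markers. The olfactory receptor limit was passed on both arrays by 1 of 5 lymphatic endothelial, 3 of 5 blood endothelial, 3 of 10 leukocyte (Cd3e, Cd8a and Csf1r), 5 of 6 neural and glial, 4 of 7 muscle and 2 of 5 epithelial markers, while Ptprc was at 6.44 ± 0.04 and Pecam1 at 7.18 ± 0.06. The part of leukocytes in the levels of Kcna3 and Kcnn4, known from lymphocytes, was not tested. Mural markers passed the stricter limit in 5 of 7 cases, with the smooth muscle myosin Myh11 at 9.45 on replicate 1 and 9.91 on replicate 2, beside the smooth muscle subunit Kcnmb1, and Rgs5 was 5.81-fold higher on replicate 2. The part of mural cells in the level of Kcnmb1 was not tested.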

How the data were processed

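RNA of cultured FRCs was measured on 2 microarrays, replicates 1 and 2 by their titles. Per the submitters' processing notes the authors used RMA, with no version given. The authors deposited a table of linear-scale intensities, 1 for each probe set on each array. RMA normalises arrays by quantiles and compresses differences at low signal. Which arrays were normalised together, and the genome build, are not given in the sources used here. Log2 intensities were computed from the deposited values. For arrays, their number limits the precision.

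Of 24679 probe sets, 21354 name 1 gene in the platform annotation and gave 19751 genes, averaging probe sets of a gene. The 92 members use 95 probe sets, and 3 members have 2 each. RefSeq identifiers matched for 92 members and changed 0 symbols. Classes were set by symbol. The members, lists and limits were chosen with earlier results of these data known. The highest olfactory receptor probe set as a limit was added after seeing the data.

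Members named with values were a fixed set of well-known channels, members above the tissue-restricted limit, members above the first limit on 1 array, members at least 1.5-fold apart and the 3 nearest the limit on each side. The other named values are range ends of a class or were chosen after their values were seen. Counting was tested on simulated data. Alternatives were other percentiles and gene sets for the limit, other probe set choices, each array alone, quantile normalisation, a loess trend (span 0.3), other level filters and 1.5-fold. Python 3.11.15, pandas 2.3.3 and statsmodels 0.14.6 were used. A search of proteins for the selectivity filter was planned and not run, as no protein sequences were used here.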

Additional observations from a re-analysis of the deposited data

How the results depend on the processing

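The count of 49 members above the limit was 50 and 51 with 1 array alone and 63 and 34 at the next lower and next higher percentile tried, where 74.8% and 60.4% of all named genes passed. With vomeronasal and taste receptors setting the limit it was 73 of 92, beside 79.7% of all named genes, so the gap between members and all genes seen at the main limit was not seen there. It was 21 at the 99th percentile (52.2% of all named genes), 15 at the tissue-restricted limit (49.7%) and 2 above the highest olfactory receptor probe set. Counts by class moved by over 1.5 times with the limit. For voltage-gated subunits (19) the count was 8 at the 99th percentile, 6 at the tissue-restricted limit and 29 at the vomeronasal and taste receptor limit. Inward rectifiers (4) gave 8 at the next lower percentile and then 1, 0 and 9 under those same 3 limits. Two-pore channels (11) gave 7 at the next higher percentile, 4 at the 99th and 2 at the tissue-restricted limit. Calcium-activated and Slo subunits (4) gave 2 at each of these 3 limits, and auxiliary subunits (8) gave 5 at the 99th percentile, 4 at the tissue-restricted and 13 at the vomeronasal and taste receptor limit. The higher limits admit fewer genes by construction. By these counts two-pore channels did not have the largest share at the 99th percentile or the tissue-restricted limit, nor inward rectifiers the smallest at the next lower percentile. With 1 array alone the class counts were 20 and 20, 4 and 4, 12 and 11, 4 and 4, and 8 and 8 in the order above, for replicate 2 and replicate 1. Other probe set choices changed no count. The 2 members at least 2-fold apart were Kcnk10 and Kcnq5 under all 8 alternatives run, and the median difference stayed within the spread between arrays. No paired analysis was possible because the series has 1 group.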

Other observations

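Several members are neighbours in the RefSeq order of protein-coding genes, and their levels were compared with the limit as a description. Of 12 adjacent pairs of members or of a member and its sulfonylurea receptor, both genes passed the olfactory receptor limit in 3, neither did in 5 and only 1 did in 4. Taken singly, 51.7% of the 89 subunits and 67.3% of all named genes passed it. Some pairs share a gene, and whether neighbours pass together more often than other genes was not tested. Kcnmb1 (11.12 ± 0.38) is next to Kcnip1 (6.33 ± 0.04), which was below the limit. Kcnj15 (8.35 ± 0.37) is next to the G protein-gated Kcnj6 (6.17 ± 0.00), also below. Kcna3 and its neighbour Kcna2, followed by Kcna10, passed, while the row of Kcna5, Kcna1 and Kcna6 did not. Kcnj11 and Abcc8 both passed, and Kcnj8 passed without Abcc9.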
